A study of Mus musculus with 14 samples.

Results

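Ascending aortas of mice given β-aminopropionitrile (BAPN) together with Cilengitide were compared with those of PBS controls across all expressed genes. Genes were taken from the deposited gene table where their level was at least 1 FPKM (fragments per kilobase of transcript, scaled to sequencing depth) in at least 3 of the 6 libraries of these groups, which left 12473 of 32289 genes. The study measured transcripts by bulk RNA sequencing of ascending aorta from C57BL/6 mice killed in week 6 of the model. The BAPN+Cilengitide group (3 libraries) received BAPN, which is given to make the aortic wall fail, plus Cilengitide as an inhibitor of integrin αV, and the PBS group (3 libraries) received neither. The other libraries, 4 of BAPN alone and 4 of BAPN with SB273005, a second αV inhibitor, enter the estimate of spread and are shown beside the results. The labels give no dose, age, sex or number of animals behind a sample, and no group received Cilengitide without BAPN. Since no label states that each sample is another mouse, the p-values speak of the scatter among these libraries alone, which may be technical. The comparison asks how an aorta exposed to both agents differs from an untreated one, and the part of each agent cannot be told apart in it.

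BAPN is an irreversible inhibitor of the lysyl oxidases, the copper enzymes that oxidise lysines of tropoelastin and collagen so that the fibres can be cross-linked. Without cross-links the elastic lamellae of the growing aorta weaken, and the ascending aorta dilates and dissects. Integrins of the αV class are cell surface receptors that recognise the Arg-Gly-Asp (RGD) motif in fibronectin, vitronectin, osteopontin and the latency peptide of TGF-β, and they let smooth muscle cells and macrophages sense and remodel the matrix. Cilengitide is a cyclic RGD peptide that occupies αVβ3 and αVβ5. The wall of a mouse aorta is mostly smooth muscle between elastic lamellae, lined by endothelium and wrapped in an adventitia of fibroblasts, resident macrophages and fat.

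The 6 libraries held 52584649 to 67041585 estimated counts each, and replicates of a group correlated at 0.954 to 0.985 in log2 CPM (counts scaled to library size). Smooth muscle actin (Acta2) stood at 4646, 6041 and 5319 FPKM in PBS and 3774, 4204 and 4658 FPKM in BAPN+Cilengitide. It is a defining marker of the labelled tissue and was abundant in all 6. Transcripts of other tissues differed between single libraries: markers of B and plasma cells summed to 4167, 62.5 and 59.8 FPKM in the 3 PBS libraries and 156, 59.5 and 53.8 FPKM in the 3 of BAPN+Cilengitide. Those of skeletal muscle summed to 44.3, 3242 and 60.95 FPKM in PBS and 414, 625 and 260.5 FPKM in BAPN+Cilengitide, and those of liver to 767, 273 and 88.8 FPKM and 296, 146 and 110.2 FPKM. B cell transcripts were thus highest in PBS replicate 1 and skeletal muscle transcripts in PBS replicate 2, and the treated libraries held more of the latter than PBS replicates 1 and 3. A second pattern runs through the whole series. For 17 genes, found after seeing the data, all 14 libraries fall on either side of a gap of 1 log2 unit or more in the same way: the 3 PBS libraries and replicates 1 to 3 of BAPN+SB273005 on one side, the other 8 on the other. H2-Ea encodes an MHC class II chain whose promoter is deleted in the C57BL/6 strain. Its count was 0 throughout the PBS side and lay between 83 and 130 throughout the other side, and strain was not tested. Umod, a kidney tubule gene, was at 9.45, 7.73 and 8.28 FPKM in PBS and 24.6, 23.6 and 25.3 FPKM in BAPN+Cilengitide. Since all PBS libraries are in one set and all BAPN+Cilengitide libraries in the other, set and treatment cannot be told apart here. The 3 BAPN+SB273005 libraries that share the set of PBS, and that also received BAPN and an αV inhibitor, are therefore given beside single genes below.

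**Figure D1:**
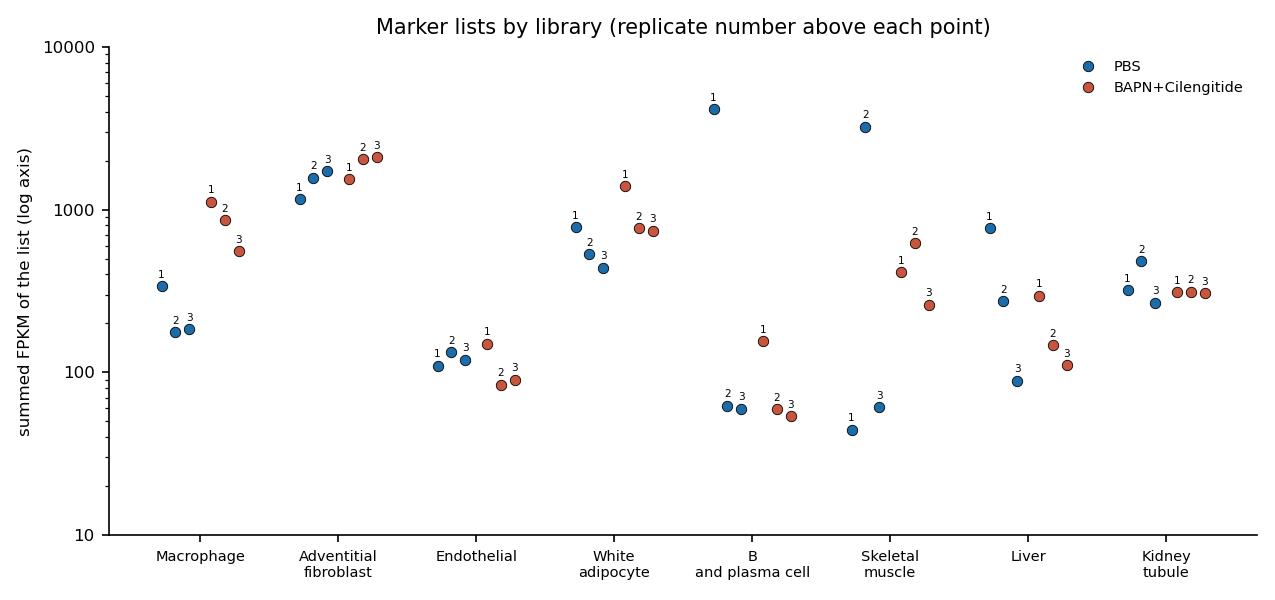
Summed FPKM (log axis) of 8 marker lists in the 3 PBS (blue) and 3 BAPN+Cilengitide (red) libraries, each point 1 library with its replicate number above it. The macrophage list sits at 338, 176 and 184 FPKM in PBS and 1119, 859 and 557 FPKM in BAPN+Cilengitide, while B cell and skeletal muscle transcripts are high in 1 PBS library each.

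At an adjusted p under 0.05, 491 genes were higher in BAPN+Cilengitide and 205 were lower, 696 in all or 5.58% of the genes tested (3.94% higher and 1.64% lower). Matrix and macrophage genes were among the rises, and Heyl, a Notch target, and Adra1d, an adrenoceptor of smooth muscle, among the falls. The median rise among the higher genes was 1.24 on the log2 scale, with 315 genes at least doubled, and the median among the lower genes was -0.92, with 88 at or below -1. Over all genes tested the median difference was -0.017. The shares of 3.94% higher and 1.64% lower and this median are the values to set beside each list count below. The FPKM ranges of the groups did not overlap in 32.1% of the genes tested, far more than passed the test. All values called log2 differences below are BAPN+Cilengitide minus PBS from edgeR, each with its standard error from the fit over all 14 libraries, and levels are FPKM per library in the order of the replicate numbers. Treated libraries are those of BAPN+Cilengitide, and PBS 1 or treated 1 stands for the library with that replicate number. After each group of genes, those whose call was lost when 1 of these 6 libraries was left out are named, and a count given without PBS 1, 2 and 3 comes from leaving out each of them in turn.

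The count of genes rests on few libraries. It fell from 696 to 155 without PBS 2, to 389 and 356 without PBS 1 or 3, and to 212, 213 and 529 without treated 1, 2 or 3. Without BAPN+SB273005 replicate 2, which enters only the spread, it was 1193. In all, 96 higher and 25 lower genes passed in all 6 of the fits without a library of this comparison. Of the calls, 70.5% were higher, a share of 57.5% with limma on log2(FPKM + 1), 57.9% after quantile normalisation and 87.4% with FPKM rescaled to a common total, which moves the median of all genes to 0.13. With the library set as a term in the fit, an alternative chosen after seeing the data, 6 genes passed, of which 2 are among the 696. Only BAPN+SB273005 has libraries in both sets, so this term rests on its replicate 4 against its replicates 1 to 3. With 1 library on that side, the fit cannot show how many of the 696 calls belong to the set. By level, 34 of the 491 higher genes and 10 of the 205 lower genes separated the 2 sets without overlap, among them Umod, Slc12a1, Aqp2, Lrp2, Gpx3, Ndrg1 and Myh7. Over all 12473 genes tested, 52 and 22 did so in these directions, and the calls hold 34 of the 52 and 10 of the 22. Any gene that separates the sets also separates PBS from BAPN+Cilengitide. A high share of such genes among the calls therefore follows from the layout of the groups. In bulk tissue, fewer cells of a type and less RNA per cell cannot be told apart.

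**Figure D2:**
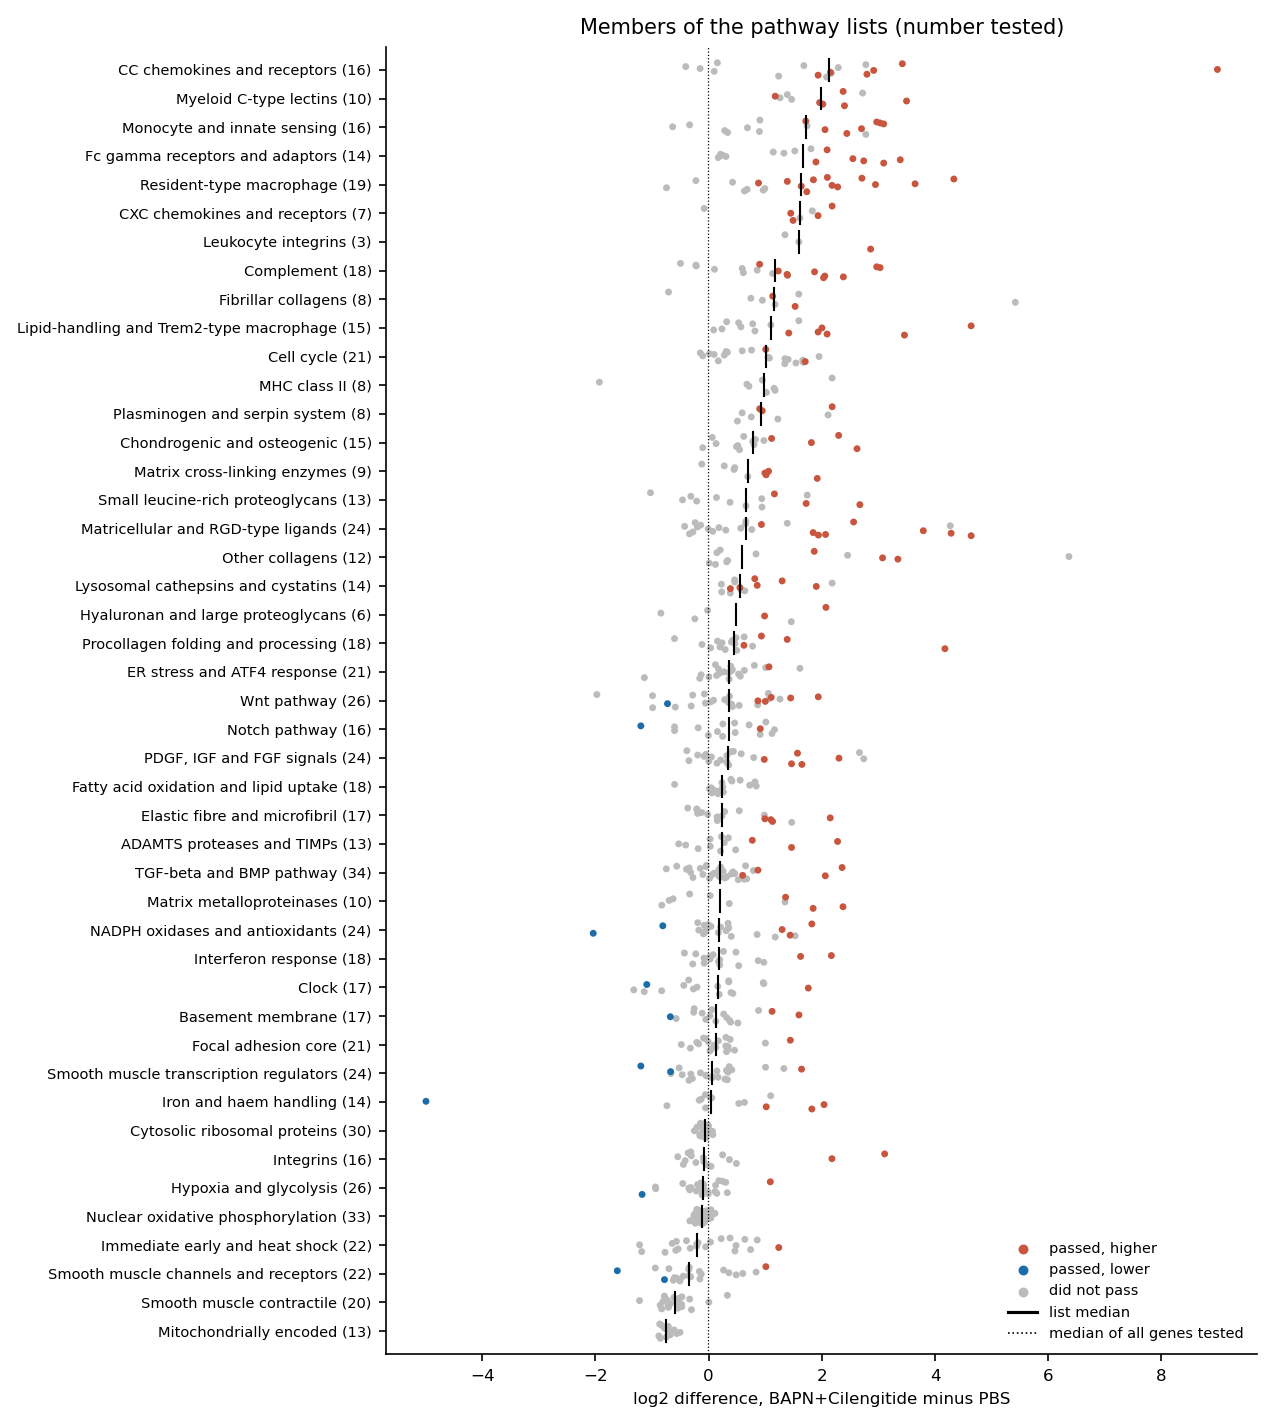
Log2 difference (BAPN+Cilengitide minus PBS) of every tested member of the pathway lists, 1 point per gene, with the number tested in brackets, the list median as a black bar and the median of all genes as a dotted line. The CC chemokine list has the highest median, 2.12, followed by myeloid C-type lectins at 1.99, and the smooth muscle contractile and mitochondrially encoded lists lie to the left at -0.59 and -0.75 with 0 members past the threshold.

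Transcripts of 4 of the 5 lysyl oxidases, the enzymes that BAPN blocks, rose. Of the 9 cross-linking genes tested, 4 rose and 0 fell, with a median log2 difference of 0.69. The number higher was 2, 2 and 3 without PBS 1, 2 and 3 and 3, 2 and 3 without treated 1, 2 and 3. Lox, the main aortic lysyl oxidase, was at 45.7, 42.8 and 69.3 FPKM in PBS and 191, 183 and 205 FPKM in BAPN+Cilengitide. All 3 treated libraries lay above all 3 controls, a 3.78-fold rise (log2 difference 1.92 ± 0.40, adjusted p = 0.0174). In the BAPN+SB273005 libraries of the PBS set, Lox was at 103 to 268 FPKM. Loxl3 measured 21.8, 21.3 and 20.5 FPKM in PBS and 47.8, 40.2 and 34.9 FPKM in BAPN+Cilengitide and doubled without overlap (log2 difference 0.99 ± 0.16, adjusted p = 0.00575). Loxl2 went from 10.5, 9.94 and 13.9 FPKM to 23.2, 24.6 and 19.4 FPKM (log2 difference 1.02 ± 0.19, adjusted p = 0.0107), and the scarcer Loxl4 from 1.26, 1.48 and 1.16 to 2.08, 2.75 and 3.07 FPKM. In log2, Loxl4 rose by 1.06 ± 0.22 (adjusted p = 0.0182). Loxl1, which acts on elastin and was the most abundant of the family, had 177, 179 and 171 FPKM in PBS and 283, 269 and 273 FPKM in BAPN+Cilengitide. Its groups did not overlap either, but the difference did not pass (log2 difference 0.69 ± 0.20, adjusted p = 0.0628). Lox lost the call without PBS 1 or 2 or treated 1 or 2. Loxl2 lost the call without PBS 2. Loxl3 passed in all 6 of these fits. Loxl4 lost the call without PBS 1 or 3 or treated 2 or 3.

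Among 8 fibrillar collagens Col1a1 and Col5a2 rose. In all 7 had a positive log2 difference, and the list median was 1.15. The remaining member went the other way, at -0.71, with an unadjusted p under 0.05 in edgeR, and was not called. DESeq2, the replicate block and the fit without treated 1 each called 1 member lower. Col1a1, which encodes the α1 chain of type I collagen, the main load-bearing collagen, was at 365, 314 and 345 FPKM in PBS and 1362, 869 and 627 FPKM in BAPN+Cilengitide. BAPN+Cilengitide replicate 1 was the highest, and the lowest treated library still lay above every control (log2 difference 1.53 ± 0.40, adjusted p = 0.042). Its partner chain Col1a2 measured 266, 269.8 and 288 FPKM in PBS and 771, 554 and 479.9 FPKM in BAPN+Cilengitide and fell just short of the threshold (log2 difference 1.17 ± 0.32, adjusted p = 0.0505). Col3a1, the collagen mutated in vascular Ehlers-Danlos syndrome, had 339.7, 372 and 435 FPKM in PBS and 735, 731 and 685 FPKM in BAPN+Cilengitide and did not pass (log2 difference 0.95 ± 0.38, adjusted p = 0.174). Col5a2 of the fibril-nucleating type V collagen went from 47.1, 44.4 and 52.7 FPKM to 117, 103 and 86.03 FPKM. Col5a2 rose by 1.13 ± 0.28 (log2, adjusted p = 0.0331). Col1a1 and Col5a2 lost the call without PBS 1, 2 or 3 or treated 1 or 2.

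Collagens of other types and the enzymes that process them included some of the steepest rises. The short-chain collagen Col8a1, made by smooth muscle cells that migrate after injury, was at 2.93, 3.41 and 5.36 FPKM in PBS and 64.99, 26.6 and 24.4 FPKM in BAPN+Cilengitide. It was more than 4-fold above the highest control in each treated library (log2 difference 3.34 ± 0.82, adjusted p = 0.0329), and the BAPN+SB273005 libraries of the PBS set had 23.5 to 93.6 FPKM. Its partner Col8a2 went from 0.633, 1.04 and 1.15 to 11.4, 6.53 and 5.37 FPKM (log2 difference 3.07 ± 0.78, adjusted p = 0.0385) and Col16a1 from 5.89, 7.11 and 8.74 to 32.1, 26.4 and 18.7 FPKM (log2 difference 1.87 ± 0.36, adjusted p = 0.0135), the remaining risers among 12 nonfibrillar collagens. Among 18 procollagen processing genes 4 rose, a number that fell to 1, 1 and 1 without PBS 1, 2 and 3 and 1, 1 and 3 without treated 1, 2 and 3. Pcolce, which enhances removal of the C-propeptide, had 26.8, 37.9 and 35.8 FPKM in PBS and 112, 78.1 and 67.1 FPKM in BAPN+Cilengitide. The rise was 1.39 ± 0.23 in log2 (adjusted p = 0.00596). P4ha3, a catalytic subunit of prolyl 4-hydroxylase, was near absent in PBS at 0.1499, 0.236 and 0.162 FPKM and reached 6.21, 1.69 and 1.92 FPKM. P4ha3 rose by 4.17 ± 1.05 (log2, adjusted p = 0.0366). P3h3 of the prolyl 3-hydroxylase family and the N-proteinase Adamts14 also passed, at 0.62 ± 0.15, adjusted p = 0.029 and 0.93 ± 0.24, adjusted p = 0.0385. In the basement membrane list, Nid1 (nidogen, 1.12 ± 0.27, adjusted p = 0.0282) and Lamb1 (laminin β1, 1.60 ± 0.42, adjusted p = 0.0439) rose while Lama4, the laminin α4 chain, fell from 13.4, 13.05 and 14.9 to 8.87, 6.95 and 9.34 FPKM. In log2, Lama4 fell by 0.68 ± 0.18 (adjusted p = 0.041). Col8a1, P4ha3, Adamts14 and Lamb1 lost the call without PBS 1, 2 or 3 or treated 1 or 2. Col8a2, P3h3 and Lama4 lost the call in each of the 6 fits. Col16a1 lost the call without PBS 2 or treated 1. Pcolce passed in all 6 of these fits. Nid1 lost the call without PBS 1 or 2 or treated 1 or 2.

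The RGD-bearing and matricellular proteins, which signal to cells rather than carry load, held some of the largest rises of the comparison. Of 24 tested, 8 rose and 0 fell, against 3.94% higher among all genes. Spp1 encodes osteopontin, an RGD ligand of αV integrins made by macrophages and injured smooth muscle. It stood at 8.76, 6.32 and 6.34 FPKM in PBS and 323, 129 and 64.4 FPKM in BAPN+Cilengitide. The lowest treated library was more than 7 times the highest control, and the treated libraries themselves differed about 5-fold (log2 difference 4.64 ± 0.76, adjusted p = 0.00612). Thbs1, the thrombospondin that binds CD47 and can activate latent TGF-β, measured 5.89, 6.93 and 10.3 FPKM in PBS and 238, 120.04 and 80.2 FPKM in BAPN+Cilengitide. Thbs1 rose by 4.28 ± 0.84 (log2, adjusted p = 0.0135). BAPN+Cilengitide replicate 1 was again the highest and every treated library lay above every control. Comp, the cartilage oligomeric matrix protein that binds collagen and smooth muscle integrins, was even in PBS at 10.2, 11.1 and 10.96 FPKM and reached 260.4, 99.5 and 76.6 FPKM. Comp rose by 3.79 ± 0.61 (log2, adjusted p = 0.00574). Tenascin-C (Tnc), an adhesion-modulating glycoprotein of remodelling tissue, went from 9.84, 7.78 and 7.98 FPKM to 51.2, 28.2 and 24.4 FPKM. In log2, Tnc rose by 2.07 ± 0.31 (adjusted p = 0.00489). Fibronectin (Fn1), the classic RGD ligand, was at 149, 106 and 115 FPKM in PBS and 712, 357 and 304 FPKM in BAPN+Cilengitide. The rise was 1.94 ± 0.43 in log2 (adjusted p = 0.0218). The BAPN+SB273005 libraries in the PBS set ranged over 33.04 to 183 FPKM for Spp1, 41.2 to 228 for Thbs1, 48.2 to 245 for Comp and 188 to 668 for Fn1, all above the 3 controls. The connective tissue growth factor Ccn2 (466, 587 and 982 FPKM in PBS and 1573, 2029 and 1579.6 FPKM in BAPN+Cilengitide) and Sparc (1566, 1465 and 1782 FPKM in PBS and 3026, 2595 and 2288 FPKM in BAPN+Cilengitide) did not overlap between groups and did not pass (1.39 ± 0.43, adjusted p = 0.0787 and 0.76 ± 0.29, adjusted p = 0.147). Spp1, Comp and Tnc passed in all 6 of these fits. Thbs1 lost the call without PBS 2. Fn1 lost the call without PBS 1, 2 or 3 or treated 1 or 2. Members of the list past the threshold numbered 4, 3 and 5 without PBS replicate 1, 2 and 3 and 4, 4 and 7 without BAPN+Cilengitide replicate 1, 2 and 3.

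**Figure D3:**
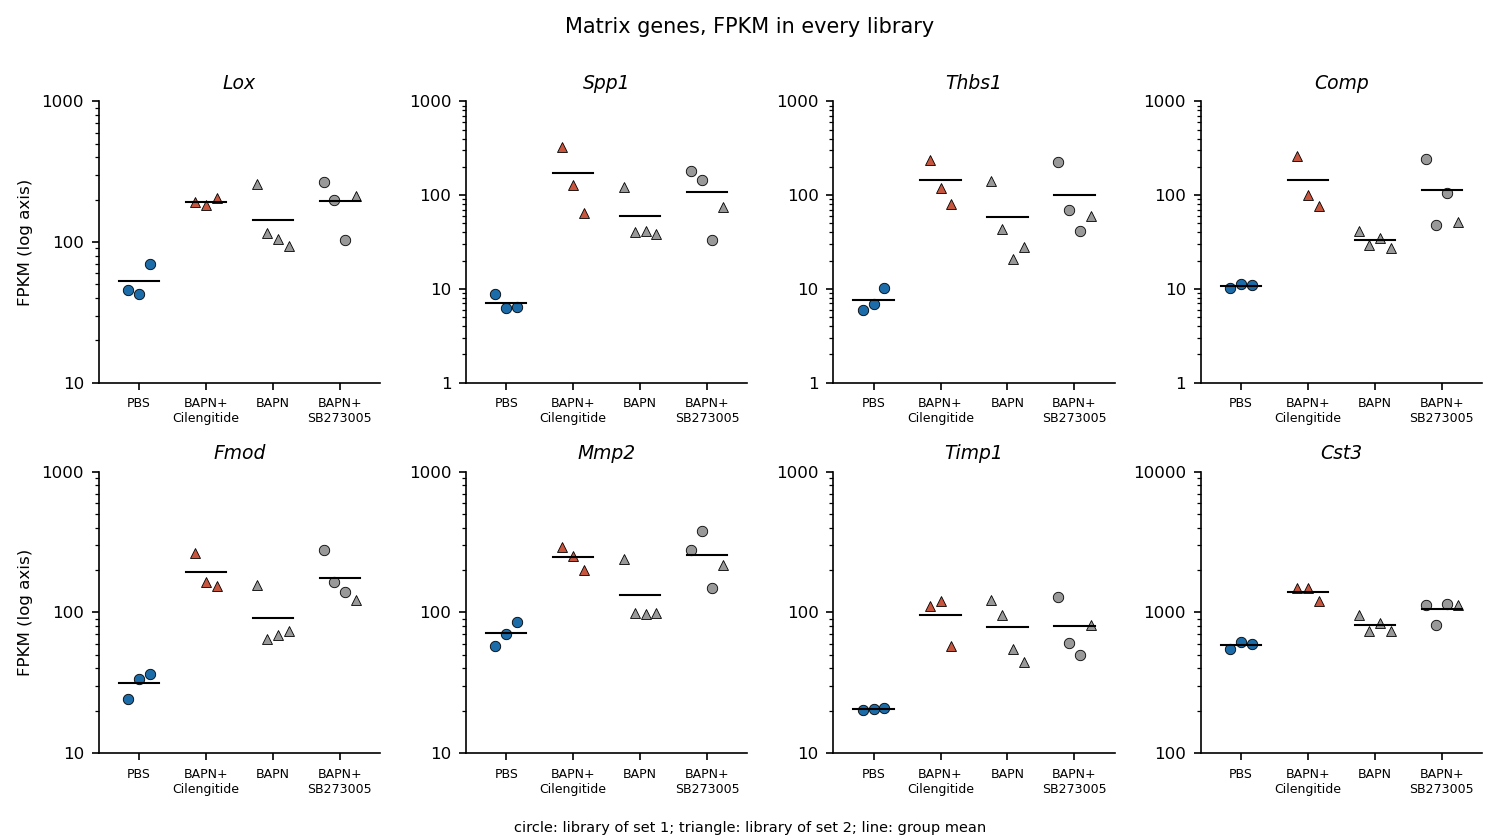
FPKM (log axis) of 8 matrix genes in every library of the 4 groups, with group means as lines, PBS in blue, BAPN+Cilengitide in red and the other groups in grey, and circles for libraries of the PBS set. For each gene shown the 3 BAPN+Cilengitide libraries lie above the 3 PBS libraries, and the circles in the BAPN+SB273005 column do so too.

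The receptors that Cilengitide targets did not pass in either direction. Itgav, the αV subunit itself, was at 8.704, 7.67 and 9.898 FPKM in PBS and 8.91, 7.998 and 9.32 FPKM in BAPN+Cilengitide. The groups overlapped and the 95% interval of the log2 difference ran from -0.27 to 0.36 (log2 difference 0.043 ± 0.15, adjusted p = 0.913). Among its β partners, Itgb3 was at 20.9, 22.6 and 17.5 FPKM in PBS and 14.7, 14.4 and 14.3 FPKM in BAPN+Cilengitide and Itgb5 at 235, 241 and 255 FPKM in PBS and 351, 316 and 329.5 FPKM in BAPN+Cilengitide. Their groups did not overlap, in opposite directions, and neither passed (-0.45 ± 0.22, adjusted p = 0.279 for Itgb3 and 0.49 ± 0.21, adjusted p = 0.199 for Itgb5). Itgb1, the partner shared by most α chains, measured 342, 368 and 401 FPKM in PBS and 325, 359 and 390.02 FPKM in BAPN+Cilengitide. The log2 difference of Itgb1 was -0.0081 ± 0.28 and did not pass (adjusted p = 0.994). Itgb6 and Itgb8 stayed under the level set for testing. Of the other α chains, Itga11, the fibroblast α11 chain that binds type I collagen, rose from 0.961, 1.68 and 2.01 FPKM to 22.8, 8.92 and 7.76 FPKM (log2 difference 3.11 ± 0.63, adjusted p = 0.0151), and the laminin receptor chain Itga6 from 0.472, 0.583 and 0.798 to 4.06, 2.24 and 1.95 FPKM. In log2, Itga6 rose by 2.18 ± 0.53 (adjusted p = 0.033). Both were scarce in PBS. No other integrin of the list passed. Over the whole list 6 of 16 were above zero with a median of -0.09, which turns to 0.10 when FPKM are rescaled to a common total. Of 21 focal adhesion genes only Tns3, a tensin, passed (log2 difference 1.44 ± 0.39, adjusted p = 0.0491), a share near the 5.58% called over all genes. Itga11 lost the call without PBS 1 or 2 or treated 1. Itga6 and Tns3 lost the call without PBS 1, 2 or 3 or treated 1 or 2.

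Genes of the elastic fibre rose in part. Eln, tropoelastin, had the largest gain in FPKM of any gene in the table, from 1146, 1129.6 and 1017 to 3513, 2288 and 3043 FPKM, and did not pass (log2 difference 1.47 ± 0.41, adjusted p = 0.0573). The treated libraries all lay about 2-fold or more above the controls, and the BAPN libraries, which share the estimate of spread, ranged from 1237 to 3037 FPKM. Passing members of the list were Fbn1 (fibrillin-1, the Marfan syndrome gene, 27.9, 27.96 and 34.7 FPKM in PBS and 65.5, 64.6 and 62.1 FPKM in BAPN+Cilengitide, log2 difference 1.13 ± 0.30, adjusted p = 0.0461), Fbln2 (1.10 ± 0.29, adjusted p = 0.0447), Fbln5 and Fbln7. Fbln5, the fibulin that brings tropoelastin and lysyl oxidase together, was at 136, 147 and 153 FPKM in PBS and 317, 252 and 276 FPKM in BAPN+Cilengitide. The rise was 0.99 ± 0.26 in log2 (adjusted p = 0.0423). Fbln7, an adhesive fibulin of low abundance, went from 2.72, 3.01 and 2.26 FPKM to 15.6, 11.2 and 7.64 FPKM, with each treated library at more than 2.5 times the highest control (log2 difference 2.15 ± 0.27, adjusted p = 0.0035). A pair of the latent TGF-β binding proteins, which tether the cytokine to microfibrils, rose as well. Ltbp2 was at 33.5, 34.7 and 38.8 FPKM in PBS and 167, 151 and 115 FPKM in BAPN+Cilengitide (log2 difference 2.06 ± 0.36, adjusted p = 0.00914), and Ltbp3 at 71.8, 71.03 and 70.1 FPKM in PBS and 108, 103 and 102 FPKM in BAPN+Cilengitide. Ltbp3 rose by 0.60 ± 0.14 (log2, adjusted p = 0.0266). The activin antagonist follistatin (Fst) rose 5.13-fold (log2 difference 2.36 ± 0.37, adjusted p = 0.00523) and Bmp4 by 0.87 ± 0.22, adjusted p = 0.0344, while the other 30 tested members of the TGF-β and BMP list, receptors and Smads included, did not pass. Among small leucine-rich proteoglycans, which bind collagen fibrils and set their diameter, fibromodulin (Fmod) was at 24.1, 33.7 and 36.4 FPKM in PBS and 266, 165 and 155 FPKM in BAPN+Cilengitide. Fmod rose by 2.67 ± 0.40 (log2, adjusted p = 0.00489). Every treated library was more than 4 times the highest control. Lumican (Lum, 1.72 ± 0.46, adjusted p = 0.0457) and podocan (Podn, 1.16 ± 0.23, adjusted p = 0.0149) also rose, and decorin (Dcn) at 98.6, 128 and 175 FPKM in PBS and 183, 304 and 264 FPKM in BAPN+Cilengitide and biglycan (Bgn) at 946, 1049.9 and 1016 FPKM in PBS and 1727, 1512 and 1384 FPKM in BAPN+Cilengitide did not pass. Fbn1, Fbln2, Fbln5, Ltbp3 and Lum lost the call in each of the 6 fits. Fbln7, Ltbp2, Fst and Fmod passed in all 6 of these fits. Bmp4 lost the call without PBS 1 or 2 or treated 1, 2 or 3. Podn lost the call without PBS 1 or treated 1.

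Of 10 matrix metalloproteinases 3 rose (median of the list 0.20), and of 13 ADAMTS proteases and their TIMP inhibitors 3 (median 0.23), against 3.94% higher over all genes. Of the metalloproteinases 6 were above zero, and 2 were lower at an unadjusted p under 0.05 in edgeR without being called. The lowest was at -0.83. In the ADAMTS and TIMP list 10 were above zero, and 1 was lower at an unadjusted p under 0.05 and not called. Mmp2, the gelatinase A that smooth muscle and fibroblasts secrete, was at 57.8, 70.1 and 85.5 FPKM in PBS and 293, 252 and 201 FPKM in BAPN+Cilengitide, without overlap (log2 difference 1.85 ± 0.41, adjusted p = 0.021), and at 148 to 379.8 FPKM in the BAPN+SB273005 libraries of the PBS set. Stromelysin-1 (Mmp3) went from 6.59, 12.8 and 11.7 FPKM to 35.8, 86.4 and 34.4 FPKM, highest in BAPN+Cilengitide replicate 2 (log2 difference 2.37 ± 0.47, adjusted p = 0.0136). Mmp19 also rose (log2 difference 1.36 ± 0.29, adjusted p = 0.0185). The inhibitor Timp1 was nearly constant in PBS at 20.1, 20.6 and 20.8 FPKM and reached 111, 120.1 and 58.1 FPKM (log2 difference 2.28 ± 0.42, adjusted p = 0.0109), and Timp2 went from 267, 292 and 298 to 495, 486 and 439 FPKM. The rise was 0.77 ± 0.18 in log2 (adjusted p = 0.0289). Adamts7, which degrades Comp, was scarce at 0.577, 0.395 and 0.581 FPKM and rose to 1.89, 1.09 and 1.18 FPKM. Adamts7 rose by 1.46 ± 0.37 (log2, adjusted p = 0.0374). Of 14 cathepsins and cystatins 6 rose and 0 fell, and the risers numbered 3, 2 and 3 without PBS 1, 2 and 3 and 2, 2 and 5 without treated 1, 2 and 3. Cathepsin K (Ctsk), a collagenase and elastase of the lysosome, was at 20.01, 19.2 and 22.9 FPKM in PBS and 83.7, 80.8 and 60.1 FPKM in BAPN+Cilengitide. Ctsk rose by 1.90 ± 0.39 (log2, adjusted p = 0.0162). Cathepsin L (Ctsl) lay between 36.4, 36.3 and 37.3 FPKM in PBS and 60.8, 69.5 and 62.97 FPKM in treated aortas, a tight pair of groups (log2 difference 0.86 ± 0.14, adjusted p = 0.00523). Their secreted inhibitor cystatin C (Cst3) was at 553, 612 and 594 FPKM in PBS and 1498, 1495 and 1210.1 FPKM in BAPN+Cilengitide. The rise was 1.30 ± 0.17 in log2 (adjusted p = 0.00381). The serpins Serpinf1 (pigment epithelium-derived factor, 0.95 ± 0.17, adjusted p = 0.0107), Serping1 (the C1 inhibitor, 0.90 ± 0.20, adjusted p = 0.0203) and Serpina3n (2.18 ± 0.53, adjusted p = 0.0317) rose. Mmp2 and Ctsk lost the call without PBS 1 or 2 or treated 1 or 2. Mmp3 lost the call without treated 2. Mmp19, Timp2 and Serpina3n lost the call without PBS 1, 2 or 3 or treated 1 or 2. Timp1 lost the call without PBS 2. Adamts7 lost the call in each of the 6 fits. Ctsl, Cst3 and Serpinf1 passed in all 6 of these fits. Serping1 lost the call without PBS 1 or 2 or treated 2.

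Mmp3 is a textbook target of the transcription factor AP-1. Its promoter is shown because the gene rose and the window holds the AP-1 core TGANTCA (capitals, a motif that reads on both strands at 1 place), which 7.81% of all RefSeq mouse promoter windows of this length hold. The window runs from 250 bases before to 50 after the start on GRCm38.p6, chr9:7445572-7445871, plus strand. A match describes these letters and shows no binding.
Mmp3: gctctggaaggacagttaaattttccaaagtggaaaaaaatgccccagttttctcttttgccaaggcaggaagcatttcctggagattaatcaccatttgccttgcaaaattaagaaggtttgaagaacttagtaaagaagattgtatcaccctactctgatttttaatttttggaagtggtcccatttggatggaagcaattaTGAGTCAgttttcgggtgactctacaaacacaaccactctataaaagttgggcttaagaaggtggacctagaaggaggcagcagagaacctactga

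Contractile genes of smooth muscle were lower in level without passing. In edgeR 0 of 20 passed, 2 were lower at an unadjusted p under 0.05, and DESeq2 called 0, while 16 had groups that did not overlap (32.1% of all genes) and the median was -0.59. Without BAPN+SB273005 replicate 2 the count was 4, and with only the 6 libraries compared it was 5. With the replicate number as a block in these 6 libraries it was 8. Myl9, the regulatory myosin light chain, was at 3249, 3285 and 3399 FPKM in PBS and 1308, 1835 and 2179 FPKM in BAPN+Cilengitide (log2 difference -0.86 ± 0.42, adjusted p = 0.278). Lmod1, an actin nucleator of smooth muscle, measured 197, 190.00 and 177 FPKM in PBS and 98.9, 106 and 128 FPKM in BAPN+Cilengitide (log2 difference -0.72 ± 0.31, adjusted p = 0.218), and Tpm1 246, 348 and 319 FPKM in PBS and 176, 181 and 201 FPKM in BAPN+Cilengitide. The log2 difference of Tpm1 was -0.67 ± 0.31 and did not pass (adjusted p = 0.252). Single genes that set smooth muscle state or tone did fall. Prdm6, a transcriptional repressor restricted to vascular smooth muscle, went from 24.5, 22.4 and 24.2 FPKM to 13.3, 13.5 and 16.5 FPKM. The log2 difference of Prdm6 was -0.67 ± 0.12 (adjusted p = 0.00765). The α1D adrenoceptor Adra1d, a mediator of aortic constriction, was at 51.7, 37.1 and 23.4 FPKM in PBS and 11.1, 10.2 and 14.04 FPKM in BAPN+Cilengitide. Adra1d fell by 1.61 ± 0.35 (log2, adjusted p = 0.0207). Kcnj8, the pore of the vascular KATP channel, fell from 29.4, 23.7 and 21.98 to 10.1, 14.4 and 17.7 FPKM. In log2, Kcnj8 fell by 0.78 ± 0.17 (adjusted p = 0.0208). Angiotensin converting enzyme (Ace) went the other way, with 94.6, 114 and 133 FPKM in PBS and 238, 219 and 213 FPKM in BAPN+Cilengitide (log2 difference 1.01 ± 0.24, adjusted p = 0.0284), and so did the scarce repressor Snai1 (1.64 ± 0.37, adjusted p = 0.0244). Prdm6 passed in all 6 of these fits. Adra1d and Kcnj8 lost the call without PBS 1 or 2 or treated 1 or 2. Ace lost the call in each of the 6 fits. Snai1 lost the call without PBS 1, 2 or 3 or treated 1 or 2.

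Among signalling pathways, 1 of 16 tested Notch genes rose and 1 fell, against 3.94% higher and 1.64% lower over all genes. The list median was 0.36. Heyl, the bHLH repressor induced by Notch3 in smooth muscle, was at 79.2, 85.4 and 57.4 FPKM in PBS and 27.1, 32.1 and 34.8 FPKM in BAPN+Cilengitide, lower in every treated library (log2 difference -1.20 ± 0.21, adjusted p = 0.00765). Hes1, the general Notch and growth-factor target, was higher in every treated library, 13.05, 12.9 and 15.8 against 8.52, 7.01 and 7.38 FPKM (log2 difference 0.91 ± 0.12, adjusted p = 0.0035). The remaining 14 tested genes of the list, receptors and ligands among them, did not pass. In the Wnt list 5 genes rose (1, 0 and 0 without PBS 1, 2 and 3 and 0, 1 and 4 without treated 1, 2 and 3), of which the secreted antagonists Sfrp2 (207, 159 and 139 FPKM in PBS and 426, 367 and 540.1 FPKM in BAPN+Cilengitide, log2 difference 1.45 ± 0.31, adjusted p = 0.0184), Sfrp4 (1.11 ± 0.27, adjusted p = 0.0341) and Frzb (13.6, 16.5 and 16.98 FPKM in PBS and 75.7, 57.01 and 42.7 FPKM in BAPN+Cilengitide, log2 difference 1.94 ± 0.41, adjusted p = 0.0174) are named by the rule, and the receptor Fzd2 fell from 45.04, 44.3 and 36.7 to 24.9, 21.8 and 27.2 FPKM. Fzd2 fell by 0.73 ± 0.13 (log2, adjusted p = 0.00803). Growth factors that rose were Pdgfb, which draws mural cells to vessels, at 4.22, 4.81 and 3.31 FPKM in PBS and 16.6, 10.8 and 10.3 FPKM in BAPN+Cilengitide (log2 difference 1.65 ± 0.28, adjusted p = 0.00691), and Pdgfc (1.47 ± 0.30, adjusted p = 0.0165). Igfbp3, a carrier of IGF, rose (log2 difference 2.30 ± 0.49, adjusted p = 0.0179), as did Igf2r, the receptor that clears IGF2 (0.98 ± 0.19, adjusted p = 0.0115), while the carrier Igfbp2 measured 60.5, 72.1 and 63.8 FPKM in PBS and 738, 332 and 209.97 FPKM in BAPN+Cilengitide and did not pass (log2 difference 2.74 ± 0.86, adjusted p = 0.0803). Of 15 genes of cartilage, tendon and bone 4 rose (2, 0 and 3 without PBS 1, 2 and 3 and 2, 2 and 4 without treated 1, 2 and 3), and 14 were above zero. The risers were Runx1 (2.62 ± 0.47, adjusted p = 0.00946), the tendon factor scleraxis (Scx, 6.71, 6.26 and 6.17 FPKM in PBS and 13.6, 30.4 and 20.96 FPKM in BAPN+Cilengitide, log2 difference 1.82 ± 0.34, adjusted p = 0.0112), osteoprotegerin (Tnfrsf11b, 7.74, 7.95 and 12.6 FPKM in PBS and 59.6, 41.6 and 34.1 FPKM in BAPN+Cilengitide, log2 difference 2.30 ± 0.51, adjusted p = 0.0221) and matrix Gla protein (Mgp), the inhibitor of arterial calcification, at 1764, 1465 and 1426 FPKM in PBS and 3754, 3633 and 2328 FPKM in BAPN+Cilengitide. The rise was 1.11 ± 0.27 in log2 (adjusted p = 0.0315). Heyl, Hes1, Fzd2 and Pdgfb passed in all 6 of these fits. Sfrp2 lost the call without PBS 2 or 3 or treated 1 or 3. Sfrp4, Frzb and Mgp lost the call without PBS 1, 2 or 3 or treated 1 or 2. Pdgfc lost the call without PBS 1 or 2 or treated 1. Igfbp3 lost the call without PBS 1, 2 or 3 or treated 1. Igf2r lost the call without treated 1. Runx1 and Scx lost the call without PBS 2. Tnfrsf11b lost the call without PBS 1 or 2 or treated 1 or 2.

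Macrophage genes rose as a group. Of 15 macrophage markers 10 rose and all 15 were above zero, with a median log2 difference of 2.05, and their summed level was 338, 176 and 184 FPKM in PBS and 1119, 859 and 557 FPKM in BAPN+Cilengitide. Neutrophil markers summed to 2.51, 2.02 and 1.78 FPKM in PBS and 6.13, 4.99 and 3.67 FPKM in BAPN+Cilengitide, higher in every treated library than in any control, with Ly6g and Elane at 0 counts. Only 1 of the 12 markers reached the level set for testing, a gene also in the metalloproteinase list, and that gene went the other way. Its log2 difference was -0.83, with an unadjusted p under 0.05 in edgeR, and it was not called. The part of neutrophils in the macrophage result was not tested. Of the resident-type list 12 of 19 rose and 17 were above zero, with the lowest at -0.74. In edgeR 1 member was lower at an unadjusted p under 0.05 and was not called. With only the 6 libraries compared, with the replicate block and without BAPN+SB273005 replicate 2, 1 member was called lower. Mrc1, the mannose receptor CD206 of tissue macrophages, was at 2.18, 2.58 and 2.81 FPKM in PBS and 11.6, 6.92 and 6.11 FPKM in BAPN+Cilengitide. Mrc1 rose by 1.73 ± 0.27 (log2, adjusted p = 0.00523). F4/80 (Adgre1) was at 1.79, 1.53 and 1.87 FPKM in PBS and 15.5, 11.8 and 5.66 FPKM in BAPN+Cilengitide (log2 difference 2.71 ± 0.53, adjusted p = 0.0137), and the CSF-1 receptor Csf1r, on which macrophage survival depends, at 7.67, 6.43 and 6.39 FPKM in PBS and 27.9, 25.8 and 17.7 FPKM in BAPN+Cilengitide. Csf1r rose by 1.85 ± 0.33 (log2, adjusted p = 0.00951). Members of the Ms4a cluster of tetraspan proteins rose too: Ms4a4a was at 0.796, 0.819 and 1.03 FPKM in PBS and 4.17, 4.11 and 4.24 FPKM in BAPN+Cilengitide (log2 difference 2.28 ± 0.22, adjusted p = 0.000783) and Ms4a6d at 1.31, 0.979 and 1.09 FPKM in PBS and 12.2, 7.85 and 5.198 FPKM in BAPN+Cilengitide. Ms4a6d rose by 2.95 ± 0.41 (log2, adjusted p = 0.00381). Cd14, the lipopolysaccharide co-receptor, had even controls, 3.29, 3.38 and 3.15 FPKM, against 21.2, 19.6 and 10.96 FPKM. The rise was 2.44 ± 0.32 in log2 (adjusted p = 0.0035). Lipid-handling macrophage genes rose in 6 of 15 cases, with apolipoprotein E (Apoe, 288, 250.3 and 219.7 FPKM in PBS and 892, 644 and 419.8 FPKM in BAPN+Cilengitide, log2 difference 1.42 ± 0.33, adjusted p = 0.0254), galectin-3 (Lgals3, 13.002, 8.57 and 7.55 FPKM in PBS and 41.1, 42.3 and 28.6 FPKM in BAPN+Cilengitide, log2 difference 2.00 ± 0.30, adjusted p = 0.00489) and Gpnmb (1.93 ± 0.40, adjusted p = 0.0162) among them, and the number was 3, 2 and 3 without PBS 1, 2 and 3 and 2, 3 and 6 without treated 1, 2 and 3. The complement C5a receptor C5ar1 went from 0.676, 0.939 and 1.01 FPKM to 9.55, 6.899 and 4.52 FPKM (log2 difference 3.03 ± 0.39, adjusted p = 0.0035), and the integrin chain CD11b (Itgam) from 1.19, 0.538 and 0.438 to 6.83, 4.92 and 3.29 FPKM. Itgam rose by 2.86 ± 0.48 (log2, adjusted p = 0.0068). Mrc1, Csf1r, Ms4a4a, Ms4a6d, Cd14, Lgals3, C5ar1 and Itgam passed in all 6 of these fits. Adgre1 lost the call without PBS 2 or treated 1. Apoe lost the call without PBS 1, 2 or 3 or treated 1 or 2. Gpnmb lost the call without PBS 1 or 2 or treated 1. Members past the threshold in the resident-type list numbered 9, 6 and 7 without PBS replicate 1, 2 and 3 and 5, 7 and 11 without BAPN+Cilengitide replicate 1, 2 and 3.

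Fc receptors and complement rose as well. Of 14 Fc receptor genes 6 rose, a count that became 12, 3 and 4 without PBS 1, 2 and 3 and 4, 4 and 6 without treated 1, 2 and 3. Fcgr3, the activating low-affinity IgG receptor, was at 5.43, 3.92 and 4.96 FPKM in PBS and 43.7, 28.3 and 20.5 FPKM in BAPN+Cilengitide (log2 difference 2.74 ± 0.39, adjusted p = 0.00392), and its signalling chain Fcer1g at 9.17, 5.89 and 5.07 FPKM in PBS and 48.2, 42.7 and 22.4 FPKM in BAPN+Cilengitide. In log2, Fcer1g rose by 2.55 ± 0.40 (adjusted p = 0.00523). The high-affinity receptor Fcgr1 (0.3899, 0.271 and 0.5704 to 4.36, 3.71 and 2.15 FPKM, 3.09 ± 0.51, adjusted p = 0.00612) and Fcgr4 (3.39 ± 0.62, adjusted p = 0.0107) were scarce in PBS, and the neonatal receptor Fcgrt, expressed widely, did not pass (0.17 ± 0.11, adjusted p = 0.45). Of 18 complement genes 10 rose and 0 fell, and the risers numbered 8, 6 and 8 without PBS 1, 2 and 3 and 8, 6 and 10 without treated 1, 2 and 3. The 3 chains of C1q, which macrophages make and which opsonise dying cells and immune complexes, all rose: C1qa was at 36.8, 28.8 and 26.5 FPKM in PBS and 153, 129.7 and 80.6 FPKM in BAPN+Cilengitide (log2 difference 2.03 ± 0.32, adjusted p = 0.00523), C1qb at 35.98, 24.04 and 25.005 FPKM in PBS and 179, 158 and 88.9 FPKM in BAPN+Cilengitide (log2 difference 2.38 ± 0.36, adjusted p = 0.00489) and C1qc at 17.8, 13.5 and 12.7 FPKM in PBS and 74.4, 62.6 and 38.9 FPKM in BAPN+Cilengitide. The rise was 2.05 ± 0.31 in log2 (adjusted p = 0.00489). The C1 proteases, made by fibroblasts and smooth muscle too, also rose: C1ra was at 20.5, 23.4 and 23.2 FPKM in PBS and 63.4, 58.2 and 49.9 FPKM in BAPN+Cilengitide (log2 difference 1.39 ± 0.19, adjusted p = 0.00381) and C1s1 at 28.1, 27.5 and 25.3 FPKM in PBS and 75.4, 72.2 and 57.04 FPKM in BAPN+Cilengitide. The rise was 1.39 ± 0.21 in log2 (adjusted p = 0.00489). In the BAPN+SB273005 libraries of the PBS set C1qb lay at 103 to 192 FPKM, Fcgr3 at 18.7 to 40.001 FPKM and Cd14 at 12.3 to 24.3 FPKM. Fcgr3, Fcer1g, Fcgr1, C1qa, C1qb, C1qc, C1ra and C1s1 passed in all 6 of these fits. Fcgr4 lost the call without PBS 2. The Fcgr, Ms4a6 and C-type lectin genes have close paralogs, between which the counting may have split reads.

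The promoters of C1qb, C1qc and Mrc1 are shown because these macrophage genes rose together and each window holds GAGGAA (capitals, on either strand), the core bound by the myeloid factor PU.1. This short motif occurs in 28.3% of all RefSeq mouse promoter windows of this length, and a match shows no binding. RefSeq windows on GRCm38.p6 were matched by symbol for 9089 of the genes tested. C1qb lies at chr4:136886151-136886450, minus strand, C1qc at chr4:136892865-136893164, minus strand and Mrc1 at chr2:14229164-14229463, plus strand, where the motif occurs 3 times.
C1qb: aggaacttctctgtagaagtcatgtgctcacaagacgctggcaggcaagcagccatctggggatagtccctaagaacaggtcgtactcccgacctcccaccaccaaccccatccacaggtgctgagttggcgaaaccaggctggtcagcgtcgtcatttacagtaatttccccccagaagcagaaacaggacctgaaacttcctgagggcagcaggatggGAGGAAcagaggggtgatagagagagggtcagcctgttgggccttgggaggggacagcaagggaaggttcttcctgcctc
C1qc: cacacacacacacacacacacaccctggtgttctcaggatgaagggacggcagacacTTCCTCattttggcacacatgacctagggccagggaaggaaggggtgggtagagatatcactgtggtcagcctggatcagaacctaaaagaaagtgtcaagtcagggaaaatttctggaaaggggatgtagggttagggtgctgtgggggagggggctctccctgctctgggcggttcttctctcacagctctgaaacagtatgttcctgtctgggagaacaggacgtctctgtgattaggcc
Mrc1: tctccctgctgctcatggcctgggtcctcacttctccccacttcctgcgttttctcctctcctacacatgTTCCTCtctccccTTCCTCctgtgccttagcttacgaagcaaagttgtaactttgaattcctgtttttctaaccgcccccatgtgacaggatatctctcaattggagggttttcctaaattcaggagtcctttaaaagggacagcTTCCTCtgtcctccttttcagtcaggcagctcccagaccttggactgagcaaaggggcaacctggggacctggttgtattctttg

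Chemokines known from myeloid cells and from the vessel wall rose. Ccl17, a ligand of CCR4 made by dendritic cells and macrophages, had 0 counts in all 3 PBS libraries and 80, 51 and 51 counts in BAPN+Cilengitide. With the whole PBS group set to 3 counts, the floor used, this was at least 67.4-fold higher (adjusted p = 0.00489). Ccl9 was at 3.88, 2.304 and 3.07 FPKM in PBS and 16.5, 12.95 and 10.1 FPKM in BAPN+Cilengitide (log2 difference 2.15 ± 0.34, adjusted p = 0.00523), and Ccl6 at 9.46, 6.704 and 5.93 FPKM in PBS and 30.3, 26.5 and 24.6 FPKM in BAPN+Cilengitide (log2 difference 1.93 ± 0.35, adjusted p = 0.0107). Cx3cl1, the membrane-bound fractalkine of endothelium and smooth muscle, rose from 5.32, 4.69 and 4.98 FPKM to 28.7, 24.1 and 12.9 FPKM. In log2, Cx3cl1 rose by 2.18 ± 0.37 (adjusted p = 0.0068). Cxcl12, the ligand of CXCR4, was at 15.1, 16.9 and 15.9 FPKM in PBS and 55.2, 47.3 and 28.1 FPKM in BAPN+Cilengitide (log2 difference 1.49 ± 0.36, adjusted p = 0.0321), Cxcl16 rose by 1.93 ± 0.42, adjusted p = 0.0205, and Pf4, a platelet and macrophage chemokine, by 1.45 ± 0.22, adjusted p = 0.00489. In all 6 of 16 CC and 4 of 7 CXC genes rose and 0 fell. The CC count was 7, 2 and 5 without PBS 1, 2 and 3 and 4, 5 and 5 without treated 1, 2 and 3, and the CXC count 3, 2 and 2 without PBS 1, 2 and 3 and 2, 2 and 4 without treated 1, 2 and 3. Of 10 myeloid C-type lectins 6 rose, for example the mannan sensor dectin-2 (Clec4n, 3.50 ± 0.72, adjusted p = 0.0157) and Clec4a1 (2.40 ± 0.43, adjusted p = 0.00937). The lectins that passed numbered 8, 2 and 2 without PBS 1, 2 and 3 and 3, 3 and 6 without treated 1, 2 and 3. Ccl17, Ccl9, Cx3cl1, Pf4 and Clec4a1 passed in all 6 of these fits. Ccl6 lost the call without PBS 2. Cxcl12 and Cxcl16 lost the call without PBS 1, 2 or 3 or treated 1 or 2. Clec4n lost the call without PBS 2 or 3 or treated 1.

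**Figure D4:**
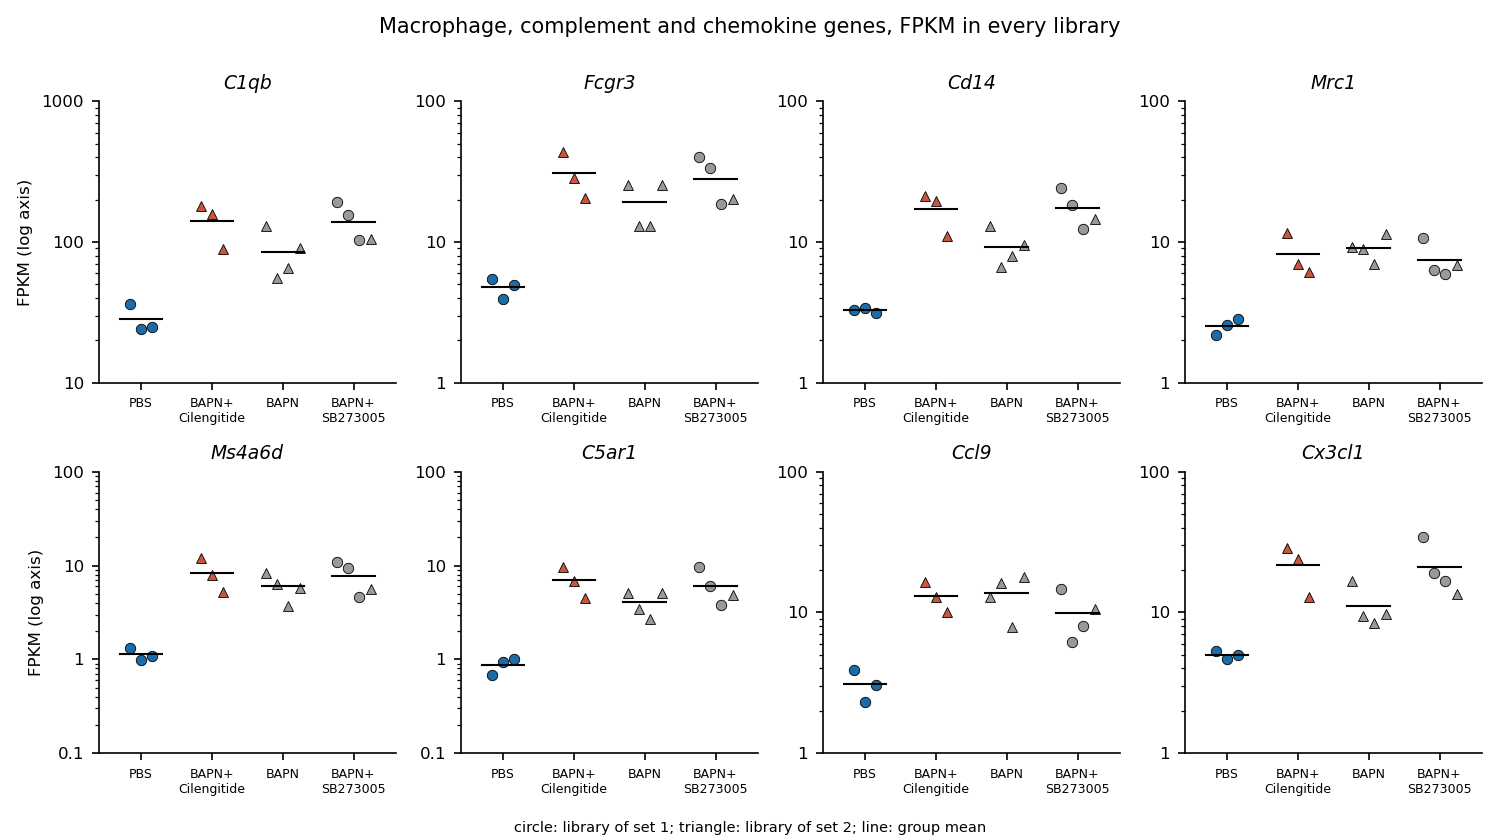
FPKM (log axis) of 8 macrophage, complement and chemokine genes in every library, with lines for group means, PBS in blue, BAPN+Cilengitide in red, the other groups in grey and circles for libraries of the PBS set. All 3 red points lie above all 3 blue points in each panel, with C1qb at 35.98, 24.04 and 25.005 FPKM in PBS and 179, 158 and 88.9 FPKM in BAPN+Cilengitide.

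MHC class II genes turned on 1 library. H2-Ab1, which presents antigen on dendritic cells, B cells and macrophages, was at 67.5, 5.17 and 5.85 FPKM in PBS and 62.6, 64.4 and 36.98 FPKM in BAPN+Cilengitide, and the invariant chain Cd74 at 378, 29.97 and 30.9 FPKM in PBS and 304, 293 and 189 FPKM in BAPN+Cilengitide. PBS replicate 1, the library with B cell transcripts, was above all treated libraries for both genes, and the other controls were below them. In edgeR 0 of 8 genes of the list passed (1 at an unadjusted p under 0.05, 1 with DESeq2), and 7 passed without PBS replicate 1, against 0 without any of the other 5 libraries. Of the cell cycle genes, Ccnd1 (cyclin D1, 4.29, 4.800 and 3.72 FPKM in PBS and 20.7, 10.5 and 9.51 FPKM in BAPN+Cilengitide, log2 difference 1.71 ± 0.40, adjusted p = 0.0271) and Cdkn1a (p21, 10.9, 10.5 and 10.5 FPKM in PBS and 16.9, 27.04 and 18.1 FPKM in BAPN+Cilengitide, log2 difference 1.01 ± 0.23, adjusted p = 0.0235) passed with all libraries. Of the 21 tested, 19 were above zero, 9 were higher at an unadjusted p under 0.05 and DESeq2 called 6 higher. The list median was 1.01, and 0.29 among members with 1 FPKM or more in all 6 libraries. The number higher was 5, 0 and 0 without PBS 1, 2 and 3 and 1, 0 and 2 without treated 1, 2 and 3. Interferon-response genes mostly did not pass, with 2 of 18 higher, against 3.94% over all genes. These were Ifi207 (2.17 ± 0.30, adjusted p = 0.00381) and Ifi204 (1.62 ± 0.43, adjusted p = 0.0442). Among markers of the other cells of the wall, Lum, Fap and Serpinf1 of the 15 adventitial fibroblast genes rose, Fap (fibroblast activation protein) from 1.92, 1.83 and 1.47 to 6.400, 3.98 and 3.93 FPKM. Fap rose by 1.50 ± 0.40 (log2, adjusted p = 0.0483). Of 7 mesothelial and epithelial markers all were below zero, with a median of -1.35 and sums of 38.7, 69.5 and 41.7 FPKM in PBS and 15.2, 28.8 and 23.1 FPKM in BAPN+Cilengitide, without overlap. Only Krt18, a keratin of simple epithelia, passed in edgeR (20.1, 16.9 and 11.003 FPKM in PBS and 4.28, 7.34 and 6.44 FPKM in BAPN+Cilengitide, log2 difference -1.36 ± 0.29, adjusted p = 0.0186). White adipocyte markers were above zero in 10 of 12 (median 0.83, sums of 777, 533 and 440.5 FPKM in PBS and 1393, 768 and 741 FPKM in BAPN+Cilengitide), with 0 called in edgeR, 2 higher at an unadjusted p under 0.05 and 0 with DESeq2. Platelet marker sums were 14.8, 14.2 and 14.3 FPKM and 30.3, 21.04 and 20.8 FPKM, mast cell sums 3.99, 5.87 and 4.13 and 8.86, 6.32 and 10.7 FPKM, and T cell sums 34.9, 20.1 and 7.77 and 7.63, 5.05 and 2.14 FPKM, each in PBS and in BAPN+Cilengitide in turn and without overlap. Few of these markers reached the level set for testing. The 2 platelet genes tested went opposite ways, Pf4 higher and called, the other at a log2 difference of -0.74 and not called. Of 3 mast cell genes 2 were above zero and 0 were called in edgeR, and the 1 T cell gene was at -1.98 and not called. Endothelial markers gave 0 of 15 in edgeR, with 1 each way at an unadjusted p under 0.05, and DESeq2 called 1 lower. Pecam1 (CD31) was at 38.5, 39.9 and 40.4 FPKM in PBS and 32.1, 18.4 and 22.4 FPKM in BAPN+Cilengitide. The log2 difference of Pecam1 was -0.66 ± 0.19 and did not pass (adjusted p = 0.0638). Krt18 lost the call without PBS 1 or 2 or treated 1. Ccnd1 lost the call without PBS 1, 2 or 3 or treated 1 or 2. Cdkn1a lost the call without PBS 1, 2 or 3 or treated 2. Ifi207 passed in all 6 of these fits. Ifi204 and Fap lost the call in each of the 6 fits.

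The falls with the smallest p were single genes of unlike function. Ide, the insulin-degrading enzyme, was at 15.1, 15.1 and 15.6 FPKM in PBS and 8.48, 6.82 and 7.77 FPKM in BAPN+Cilengitide (log2 difference -0.95 ± 0.12, adjusted p = 0.0035), lower by a similar step in every treated library. It was also low in the other BAPN-fed libraries, 7.91 to 8.64 FPKM with BAPN alone and 6.07 to 8.505 FPKM in the BAPN+SB273005 libraries of the PBS set. Fgfbp3, an FGF-binding protein near Ide on chromosome 19 and looked up after the values were seen, was at 2.67, 1.75 and 2.56 FPKM in PBS and 1.34, 0.835 and 1.28 FPKM in BAPN+Cilengitide. In log2, Fgfbp3 fell by 0.95 ± 0.22 (adjusted p = 0.0266). On mm10 Ide lies at chr19:37268743-37330613 and Fgfbp3 at chr19:36917550-36919615, and of the genes between them Btaf1, Cpeb3 and Marchf5 did not pass (-0.33 ± 0.18, adjusted p = 0.353, 0.088 ± 0.19, adjusted p = 0.854 and 0.068 ± 0.11, adjusted p = 0.805). Copy number gains that span Ide and Fgfbp3 are known in some C57BL/6 stocks, and copy number was not measured here. Kcnh2, the hERG potassium channel, fell from 28.4, 28.5 and 26.1 FPKM to 12.99, 13.2 and 14.5 FPKM. Kcnh2 fell by 0.98 ± 0.13 (log2, adjusted p = 0.00381). Inka2, an inhibitor of the actin-regulating kinase PAK4, was at 11.1, 10.7 and 9.04 FPKM in PBS and 3.96, 3.98 and 5.46 FPKM in BAPN+Cilengitide (log2 difference -1.16 ± 0.18, adjusted p = 0.00523), Tsc22d1, a TGF-β-induced leucine zipper protein, at 56.9, 47.9 and 47.4 FPKM in PBS and 25.4, 26.7 and 27.8 FPKM in BAPN+Cilengitide (log2 difference -0.88 ± 0.14, adjusted p = 0.00523), and Gpsm2, which orients the mitotic spindle, at 15.4, 12.1 and 13.7 FPKM in PBS and 7.95, 5.700 and 8.67 FPKM in BAPN+Cilengitide. The log2 difference of Gpsm2 was -0.84 ± 0.14 (adjusted p = 0.0068). Amigo2, an adhesion protein, went from 26.1, 27.5 and 33.4 FPKM to 7.600, 9.02 and 12.96 FPKM (log2 difference -1.52 ± 0.28, adjusted p = 0.0112) and Smim5, a small membrane protein, from 23.7, 24.4 and 15.9 FPKM to 6.63, 6.95 and 9.63 FPKM. Smim5 fell by 1.42 ± 0.24 (log2, adjusted p = 0.00765). Ide, Kcnh2, Inka2, Tsc22d1, Gpsm2 and Smim5 passed in all 6 of these fits. Fgfbp3 lost the call without PBS 1 or 3 or treated 1 or 2. Amigo2 lost the call without treated 1 or 2.

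**Figure D5:**
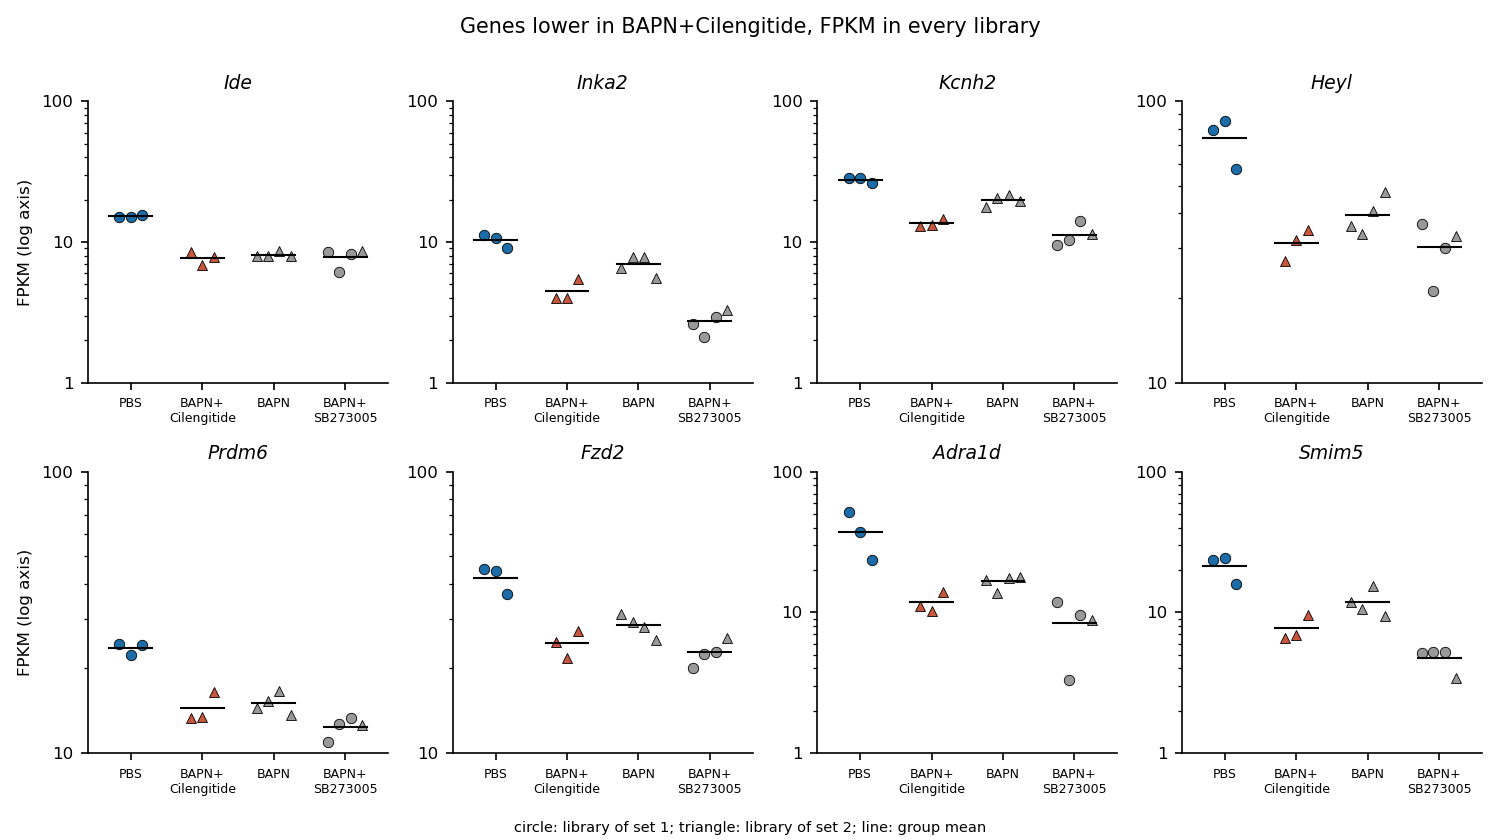
FPKM (log axis) of 8 genes that were lower in BAPN+Cilengitide (red) than in PBS (blue), in every library, with group means as lines, the other groups in grey and circles for libraries of the PBS set. Ide sits at 15.1, 15.1 and 15.6 FPKM in PBS and at 7.91 to 8.64 FPKM with BAPN alone, and the BAPN+Cilengitide values of each gene lie below all 3 controls.

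Liver genes were among the largest falls. Of 11 tested liver markers 5 fell and 0 rose, with 2 above zero (Cyp2e1 at 1.09 and Hp at 0.53, neither called), and the number lower was 0, 0 and 7 without PBS 1, 2 and 3 and 0, 0 and 0 without treated 1, 2 and 3. Albumin (Alb) was at 123, 68.4 and 6.24 FPKM in PBS and 2.03, 3.61 and 1.19 FPKM in BAPN+Cilengitide (log2 difference -4.78 ± 1.03, adjusted p = 0.0195), and the major urinary protein Mup20 at 97.2, 39.2 and 3.702 FPKM in PBS and 0.728, 1.89 and 0.311 FPKM in BAPN+Cilengitide. In log2, Mup20 fell by 5.47 ± 1.32 (adjusted p = 0.0314). Hemopexin (Hpx, -4.99 ± 1.18, adjusted p = 0.0283) and Apoa2 (-4.56 ± 1.03, adjusted p = 0.0236) of the list also fell, and another called member is not named here. Serpina1e, which is not in the list, fell too (-3.96 ± 0.83, adjusted p = 0.0174). PBS replicates 1 and 2 carried most of the transcripts of these falling genes and PBS replicate 3 little, while the summed liver markers of every treated library exceeded those of PBS replicate 3, and the part of liver RNA in single libraries was not tested. Mup genes are near-identical copies whose reads cannot be assigned with certainty. Actn2, the striated muscle α-actinin, was at 8.06, 24.03 and 10.7 FPKM in PBS and 3.98, 4.88 and 3.54 FPKM in BAPN+Cilengitide, highest in PBS replicate 2, where the skeletal muscle sum was also highest (log2 difference -1.76 ± 0.45, adjusted p = 0.0388). Alb, Mup20, Hpx and Apoa2 lost the call without PBS 1 or 2 or treated 1, 2 or 3. Serpina1e lost the call without PBS 1 or treated 1 or 3. Actn2 lost the call without PBS 2 or 3 or treated 1, 2 or 3.

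Kidney-typical genes rose in 5 of 9 tested cases (3 in each fit without 1 of the 6 libraries), and Umod, Slc12a1, Aqp2 and Lrp2 separated the library sets. In all, 6 of the 9 were above zero. Kap, an abundant member, was lower in every treated library, with 268.9, 240.5 and 221.1 FPKM in PBS and 205.5, 203.3 and 213.9 FPKM in BAPN+Cilengitide. The treated sums of the list lay within the range of PBS (319.9, 482.5 and 268.6 FPKM in PBS and 311.2, 312.6 and 305.6 FPKM in BAPN+Cilengitide). Outside PBS 2, Kap made up most of each sum. The list also holds Pvalb, a member of the skeletal muscle list, whose sum was highest in PBS 2. The sum therefore does not show how the scarcer kidney genes changed. Umod, whose values stand above, passed (log2 difference 1.58 ± 0.26, adjusted p = 0.00653), as did Slc12a1, the tubular Na-K-2Cl cotransporter, at 0.954, 0.847 and 0.918 FPKM in PBS and 2.22, 1.98 and 2.102 FPKM in BAPN+Cilengitide (log2 difference 1.26 ± 0.19, adjusted p = 0.00489), and the water channel Aqp2 at 1.87, 1.69 and 1.37 FPKM in PBS and 3.98, 4.36 and 5.55 FPKM in BAPN+Cilengitide. The rise was 1.53 ± 0.37 in log2 (adjusted p = 0.0294). In the BAPN+SB273005 libraries of the PBS set they lay at 8.94 to 11.6, 1.101 to 1.35 and 1.22 to 1.94 FPKM, below all 8 libraries of the other set. Gpx3, the plasma glutathione peroxidase that kidney secretes and vessels express, was at 209, 257 and 209 FPKM in PBS and 566, 536 and 513 FPKM in BAPN+Cilengitide (log2 difference 1.30 ± 0.18, adjusted p = 0.00381) and at 301 to 373 FPKM in those 3 libraries, above PBS and below all 8 libraries of the other set. Ndrg1, a stress- and hypoxia-induced gene with the smallest adjusted p of all genes, measured 14.5, 13.8 and 14.3 FPKM in PBS and 32.5, 26.4 and 29.2 FPKM in BAPN+Cilengitide (log2 difference 1.09 ± 0.10, adjusted p = 0.000637) and 19.6 to 23.1 FPKM in those 3. The cardiac myosin Myh7 fell from 4.81, 5.08 and 4.51 FPKM to 0.251, 0.0454 and 0.144 FPKM (log2 difference -4.98 ± 1.01, adjusted p = 0.0151) and stood at 5.31 to 7.54 FPKM in them. Umod, Slc12a1, Gpx3 and Ndrg1 passed in all 6 of these fits. Aqp2 lost the call in each of the 6 fits. Myh7 lost the call without PBS 2 or treated 2.

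Genes of mitochondria and ribosomes did not pass. The 13 mitochondrially encoded genes were all below zero, with a median of -0.75 and groups that did not overlap in 11 (32.1% of all genes). The median was -0.22 after quantile normalisation and turned to 0.43 with the library set as a term. In edgeR 0 passed, with 0 at an unadjusted p under 0.05 and 0 with DESeq2, while limma on quantile-normalised values called 1 and edgeR on only the 6 libraries compared called 4. mt-Nd1, a subunit of complex I, was at 5744, 8708 and 6162 FPKM in PBS and 4075, 3652 and 3428 FPKM in BAPN+Cilengitide (log2 difference -0.85 ± 0.43, adjusted p = 0.295), and at 4598 to 12988 FPKM in the BAPN+SB273005 libraries of the PBS set. Nuclear genes of oxidative phosphorylation gave 0 of 33, cytosolic ribosomal proteins 0 of 30 and fatty acid oxidation 0 of 18, each also 0 at an unadjusted p under 0.05 and with DESeq2. Their medians were -0.11, -0.066 and 0.24, and with FPKM rescaled to a common total the first and second turned to 0.068 and 0.082. The first was also 0.066 without PBS 2, and the second 0.021 without treated 1 and 0.042 with the set term. Single members of other stress and metabolic lists did pass. Hmox1, haem oxygenase 1, was at 8.77, 6.31 and 6.09 FPKM in PBS and 36.1, 21.2 and 15.02 FPKM in BAPN+Cilengitide (log2 difference 1.82 ± 0.45, adjusted p = 0.0334), and ferritin light chain (Ftl1) at 455, 369.8 and 346 FPKM in PBS and 892, 728 and 670.3 FPKM in BAPN+Cilengitide. The rise was 1.02 ± 0.25 in log2 (adjusted p = 0.0346). The oxygen-sensing hydroxylase Egln3 fell from 7.13, 8.56 and 6.53 to 4.27, 2.84 and 2.48 FPKM. Egln3 fell by 1.17 ± 0.24 (log2, adjusted p = 0.0165). Of the clock genes Nr1d1, which encodes REV-ERBα, rose (29.3, 20.03 and 32.9 FPKM in PBS and 60.2, 95.3 and 113 FPKM in BAPN+Cilengitide, log2 difference 1.76 ± 0.44, adjusted p = 0.0346) and Hlf fell (log2 difference -1.09 ± 0.28, adjusted p = 0.042), and the time of day of sampling is not in the labels. Hmox1, Ftl1 and Hlf lost the call without PBS 1, 2 or 3 or treated 1 or 2. Egln3 lost the call without PBS 2 or treated 2 or 3. Nr1d1 lost the call in each of the 6 fits.

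Other genes that rose lay outside the lists. Thy1 (CD90), a surface glycoprotein of fibroblasts and injured vessels, was at 7.79, 8.41 and 5.91 FPKM in PBS and 28.9, 31.6 and 20.3 FPKM in BAPN+Cilengitide. The rise was 1.92 ± 0.22 in log2 (adjusted p = 0.0027). Cpxm2, a carboxypeptidase-like protein, reached 87.8, 61.8 and 84.4 FPKM from 8.16, 12.4 and 16.3 (log2 difference 2.70 ± 0.53, adjusted p = 0.0141), Ecrg4, a secreted peptide precursor, 47.4, 28.4 and 22.6 FPKM from 4.100, 5.82 and 5.48 (log2 difference 2.71 ± 0.69, adjusted p = 0.0388), and Fcrls, an Fc receptor-like gene of mouse macrophages, 26.7, 14.04 and 8.38 FPKM from 2.31, 2.51 and 1.97 (log2 difference 2.89 ± 0.55, adjusted p = 0.0117). A further 5 genes were picked after their values were seen, as genes that passed whichever of the 6 libraries was left out. Gpr176, an orphan receptor, rose from 0.484, 0.1699 and 0.218 FPKM to 11.2, 6.604 and 6.04 FPKM. In log2, Gpr176 rose by 4.84 ± 0.72 (adjusted p = 0.00489). Endocan (Esm1), a proteoglycan of activated endothelium, was at 0.641, 0.603 and 0.752 FPKM in PBS and 9.91, 5.62 and 4.32 FPKM in BAPN+Cilengitide. Esm1 rose by 3.35 ± 0.51 (log2, adjusted p = 0.00489). Gdf10, a BMP-like factor, measured 25.1, 38.7 and 35.9 FPKM in PBS and 128, 117 and 96.1 FPKM in BAPN+Cilengitide. The rise was 1.81 ± 0.29 in log2 (adjusted p = 0.00575). Zfp469, the mouse counterpart of the brittle cornea syndrome gene, was at 0.251, 0.288 and 0.311 FPKM in PBS and 2.21, 2.48 and 1.24 FPKM in BAPN+Cilengitide (log2 difference 2.84 ± 0.40, adjusted p = 0.00392), and the lymphangiogenic Vegfd at 5.63, 5.59 and 6.05 FPKM in PBS and 21.1, 26.04 and 26.8 FPKM in BAPN+Cilengitide. Vegfd rose by 2.14 ± 0.37 (log2, adjusted p = 0.00765). In the BAPN+SB273005 libraries of the PBS set the 5 lay at 3.99 to 11.5, 1.47 to 9.06, 83.3 to 185, 0.705 to 2.39 and 18.4 to 25.3 FPKM in this order. Thy1 passed in all 6 of these fits. Cpxm2 lost the call without PBS 1 or 2. Ecrg4 lost the call without PBS 1, 2 or 3 or treated 1 or 2. Fcrls lost the call without PBS 2.

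BAPN alone, compared with the same PBS libraries, moved 0.417% of the genes (52) past the threshold. Both comparisons share their controls. All BAPN libraries also lie in the library set opposite to PBS, so set and BAPN cannot be told apart here either. Spp1 stood at 38.3 to 121 FPKM with BAPN alone (log2 difference from PBS 3.08, adjusted p = 0.0625), Comp at 27.2 to 41.7 (1.63, adjusted p = 0.211), Lox at 93.02 to 258 (1.44, adjusted p = 0.108) and C1qb at 55.8 to 129.6 (1.61, adjusted p = 0.0502). BAPN replicate 1 was the highest of its group for each of these 4 genes, and for all but Comp it lay above the lowest BAPN+Cilengitide library. Compared directly, BAPN+Cilengitide and BAPN differed in 0 genes (0%) in edgeR, with 755 genes at an unadjusted p under 0.05 (6.05%) and 14 genes by DESeq2. So the differences from PBS were not shown to be larger with both agents than with BAPN alone.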

How the data were processed

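The submitters' processing notes name the aligner HISAT2 2.2.1, the transcript quantifier StringTie 2.1.6 and the build mm10. For annotation release, filters and strand, the sources used here give nothing. The deposited table gives each gene an estimated count in whole numbers and an FPKM, which the authors scaled by transcript length and depth.

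The estimated counts of all 14 libraries were fitted with edgeR 4.0.16 (quasi-likelihood, TMM, 4 groups), and p-values were adjusted by Benjamini-Hochberg over the 12473 genes with an FPKM of at least 1 in at least 3 of the 6 libraries compared, with 0.05 as threshold. Standard errors were derived from the log2 difference and its F statistic, so the 95% intervals are approximate. limma 3.58.1 and DESeq2 1.42.0 served as alternatives, and the code was tested on simulated data. The library sets were defined after seeing the data.

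Genes, lists and tests were chosen with earlier results of these data known. Named genes are Itgav and its partners, the lysyl oxidases, genes among the 10 largest rises or falls and the 6 smallest adjusted p each way (10 FPKM or more, no overlap), and list members among the 4 smallest p or 2 highest levels. Exceptions (Fgfbp3 and its neighbours, 5 genes kept in every leave-out, C1qa, Csf1r, Fn1, H2-Ea) were chosen after their values were seen. Some of the genes chosen in these ways are not reported here.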

Additional observations from a re-analysis of the deposited data

How the results depend on the processing

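The count of 696 genes was 694 with DESeq2 size factors, 627 with library totals and 696 with robust fitting. It was 1074 with only the 6 libraries compared, 1348 with DESeq2, 455 with no filter, 444 with a filter of 5 FPKM, and 6 once the library set entered the fit, an alternative added after seeing the data. The cause of these changes was not tested. limma on log2(FPKM + 1), log2(FPKM + 0.1), rescaled and quantile-normalised FPKM called 628, 652, 533 and 670. With 1 library left out, counts ran from 155 (without PBS replicate 2) to 1193 (without BAPN+SB273005 replicate 2). The replicate number as a block gave 1188, and 8 of 20 smooth muscle contractile genes lower. Same-numbered samples correlated at 0.211, 0.054 and 0.368 in their deviations, and each sample correlated best with its own number, a hint from the data, not the design. The labels do not say that numbers pair samples, and not every pair passed 0.1. Over all named genes and alternatives, 3805 values kept direction and call, 629 lost and 82 gained a call in the same direction. Signs turned only for uncalled values: Acta2 (0.35, quantile-normalised), Itgb1 (0.0039 with 1 FPKM in all 6, 0.15 rescaled), and with the set term H2-Ea (-0.28), Itgav (-0.28), Marchf5 (-0.18) and mt-Nd1 (0.21). In leave-outs Itgav ranged from -0.018 to 0.15, Itgb1 from -0.098 to 0.058, Hp from -0.39 to 1.52 and Cpeb3 from -0.069 to 0.27. Depth does not limit these comparisons as much as the scatter between libraries does: replicates differed by a chi-square of 61.7 or more per degree of freedom.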
